A study of Mus musculus with 10 samples.

Results

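The mitochondrial ribosome makes the proteins that mitochondrial DNA encodes, core subunits of the respiratory chain and of ATP synthase. Its ribosomal RNAs come from mitochondrial DNA, but each of its proteins is encoded in the nucleus, made in the cytosol and imported. The large subunit forms the peptide bond and leads the new chain to the inner membrane, and the small subunit reads the messenger RNA. Some of the proteins descend from the bacterial ribosome, and others were added in the mitochondrial lineage. Neurons depend heavily on respiration, and several of these genes cause human mitochondrial disease when mutated.

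The genes described here are those of the value table with a single platform symbol that starts with Mrpl or Mrps followed by a digit. There were 77 of them among 19938 measured genes, 48 with a large subunit name (Mrpl) and 29 with a small subunit name (Mrps). Each is represented by 1 transcript cluster, the array's summary of all probes along a transcript, and where a gene had several the one with the highest mean over the 10 arrays was taken. Of the 77 genes, 69 had 1 transcript cluster and 8 had a second one. Mrpl53 shares its transcript cluster with Ccdc142 and is not among the 77. All 77 were found in the RefSeq annotation of GRCm38.p6 by gene ID under the same symbol, on 17 chromosomes. The names do not settle the place of every protein. Mrps18a and Mrps30 sit in the large subunit in ribosome structures, and Mrps36 is now counted with the 2-oxoglutarate dehydrogenase complex. By structure there were therefore 50 large subunit and 26 small subunit genes, and Mrps36 belonged to neither.

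The mice were males of 16 weeks on a background labelled C57BL/6N (the study's methods name C57BL/6J), and RNA came from the whole hippocampus of both sides. There were 5 Tg(Dyrk1a) mice, a model of Down syndrome in which a bacterial artificial chromosome adds a copy of Dyrk1a, and 5 wild-type littermates. Dyrk1a encodes a dual-specificity kinase. The transgene is carried in every cell, so the hippocampus was not targeted, and 1 transgenic line was used. Each mouse gave 1 Affymetrix whole-transcript array. Differences below are Tg(Dyrk1a) minus wild type on the log2 scale, with the standard error of limma, and levels are log2 values given as mean ± SD over 5 mice.

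Dyrk1a, the gene in excess, measured 11.65 ± 0.02 in the Tg(Dyrk1a) mice and 11.18 ± 0.06 in the wild type (n = 5 each, transcript cluster 10437136), a difference of 0.47 ± 0.03 or 1.38-fold with a Benjamini-Hochberg adjusted p of 0.000138 by limma. The arrays of the groups did not overlap. A second, dimmer transcript cluster of the gene differed by 0.16 ± 0.05 and did not pass. The median of an array lay between 6.57 and 6.66, and pairs of arrays correlated at 0.9942 to 0.9983 across transcript clusters. Arrays have no read depth, and it is their number that limits the precision. Choroid plexus markers stood high in Tg(Dyrk1a) replicates 2 and 4 and wild-type replicate 5, with scores of 0.853 to 1.184 against -0.711 to 0.027 on the other arrays. Markers of hippocampal neurons were all above the array medians, from 7.82 for Spink8 to 11.42 for Zbtb20. In whole-tissue RNA, fewer cells of a type and less RNA per cell cannot be told apart.

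Promoter sequence is shown first, because nuclear genes of mitochondrial proteins are known for binding sites of a few transcription factors. Promoters were taken from RefSeq (GRCm38.p6) as the 250 bases before and 50 bases after each annotated start, and were found for 68 of the 77 genes. The letters searched on both strands were CGCATGCG for NRF1, CCGGAAG for ETS factors such as GABPA, and AAGATGGCG for YY1. None of these matches overlaps another in the windows printed here. The windows below belong to genes whose values are described later and hold at least 1 match, set in capitals. They are written from 5′ to 3′ on the strand of the gene.
Mrps26, chr2:130563657-130563756, plus strand: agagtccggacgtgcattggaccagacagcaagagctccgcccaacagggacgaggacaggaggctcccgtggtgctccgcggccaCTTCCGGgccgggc
Mrpl43, chr19:45006443-45006542, minus strand: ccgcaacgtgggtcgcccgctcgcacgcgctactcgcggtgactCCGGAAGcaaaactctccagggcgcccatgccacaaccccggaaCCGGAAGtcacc
Mrpl32, chr13:14613038-14613137, minus strand: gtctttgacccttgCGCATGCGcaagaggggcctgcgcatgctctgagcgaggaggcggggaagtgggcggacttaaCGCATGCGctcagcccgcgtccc
Mrpl22, chr11:58171564-58171663, plus strand: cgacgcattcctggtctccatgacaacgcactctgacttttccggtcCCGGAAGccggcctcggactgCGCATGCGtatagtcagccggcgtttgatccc
Mrpl39, chr16:84735285-84735384, minus strand: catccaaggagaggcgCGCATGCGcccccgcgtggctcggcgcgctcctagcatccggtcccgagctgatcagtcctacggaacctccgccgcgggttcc
Mrpl35, chr6:71823750-71823779, minus strand: ccaccgtaggcaggctgcAAGATGGCGgct

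The ETS letters of Mrps26 lie 14 bases before the start, on the opposite strand, and those of Mrpl43 lie 56 and 12 bases before it. Mrpl32 has the NRF1 letters 86 and 23 bases before its start, and Mrpl22 has the ETS letters 53 and the NRF1 letters 32 bases before one of its annotated starts. Mrpl39 has the NRF1 letters 124 bases before its start. In Mrpl35 the YY1 letters lie 23 bases after the start and hold the ATG triplet.

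The ETS letters were present in promoters of 25 of the 68 genes, the YY1 letters in 8 and the NRF1 letters in 7. At least 1 of the 3 was present in 35 genes. Counted by promoter, 33.8% of the 74 promoters of these genes held the ETS letters against 8.86% of all 32851 promoters of the table, 10.8% against 1.4% held the YY1 letters, and 9.46% against 1.87% held the NRF1 letters. Over the 21262 promoters of protein-coding genes the shares were 11.6% for the ETS, 1.83% for the YY1 and 2.52% for the NRF1 letters. Base composition was not matched between these promoters and all others. A match describes letters and does not show that a factor binds there. The genotype difference of the genes is given with and without a match, with no test. The median difference was 0.04 in the 35 genes with any of the letters and 0.04 in the 33 genes with none, and 29 and 28 of them, respectively, had a higher Tg(Dyrk1a) mean. For the NRF1 letters alone the medians were 0.06 in 7 genes and 0.04 in 61. They were 0.04 in 25 and 0.04 in 43 for the ETS letters, and 0.03 in 8 and 0.04 in 60 for the YY1 letters.

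Mitochondrial ribosomal protein genes had mostly higher means in the Tg(Dyrk1a) hippocampus, by a few percent, and no single gene passed the test. The mean was higher in Tg(Dyrk1a) for 64 of the 77 genes (83.1%) and lower for 13. Over all measured genes 51.7% were higher, and over the 12158 genes in the same range of mean signal (6.14 to 10.55) 57.6% were. The median difference was 0.04, with quartiles of 0.01 and 0.06 and extremes of -0.07 and 0.20, against a median of 0.00199 over all genes and 0.0102 over the genes in that signal range. The median standard error of a single gene was 0.04, as large as the median difference. None of the 77 passed an adjusted p of 0.05 by limma, where 0.00854% of the 23410 tested transcript clusters passed, and their adjusted p ran from 0.947 to 0.999. At an unadjusted p under 0.05, 7 genes (9.09%) were higher and 0 were lower, beside 2.99% higher and 1.94% lower over all transcript clusters. Of the 12158 genes in the same signal range, 548 (4.51%) were higher and 226 lower at that p. The 7 became 11, all higher, without Tg(Dyrk1a) replicate 4 (3.72% of all transcript clusters higher). Without Tg(Dyrk1a) replicate 1 there were 8 higher and 1 lower, Mrpl44 (3.44% higher and 3.34% lower over all). The groups did not overlap for 0 of the 77 genes, beside 0.807% of all transcript clusters. The genes are not independent of each other, as the arrays below show, and the counts are descriptions without a test.

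**Figure D1:**
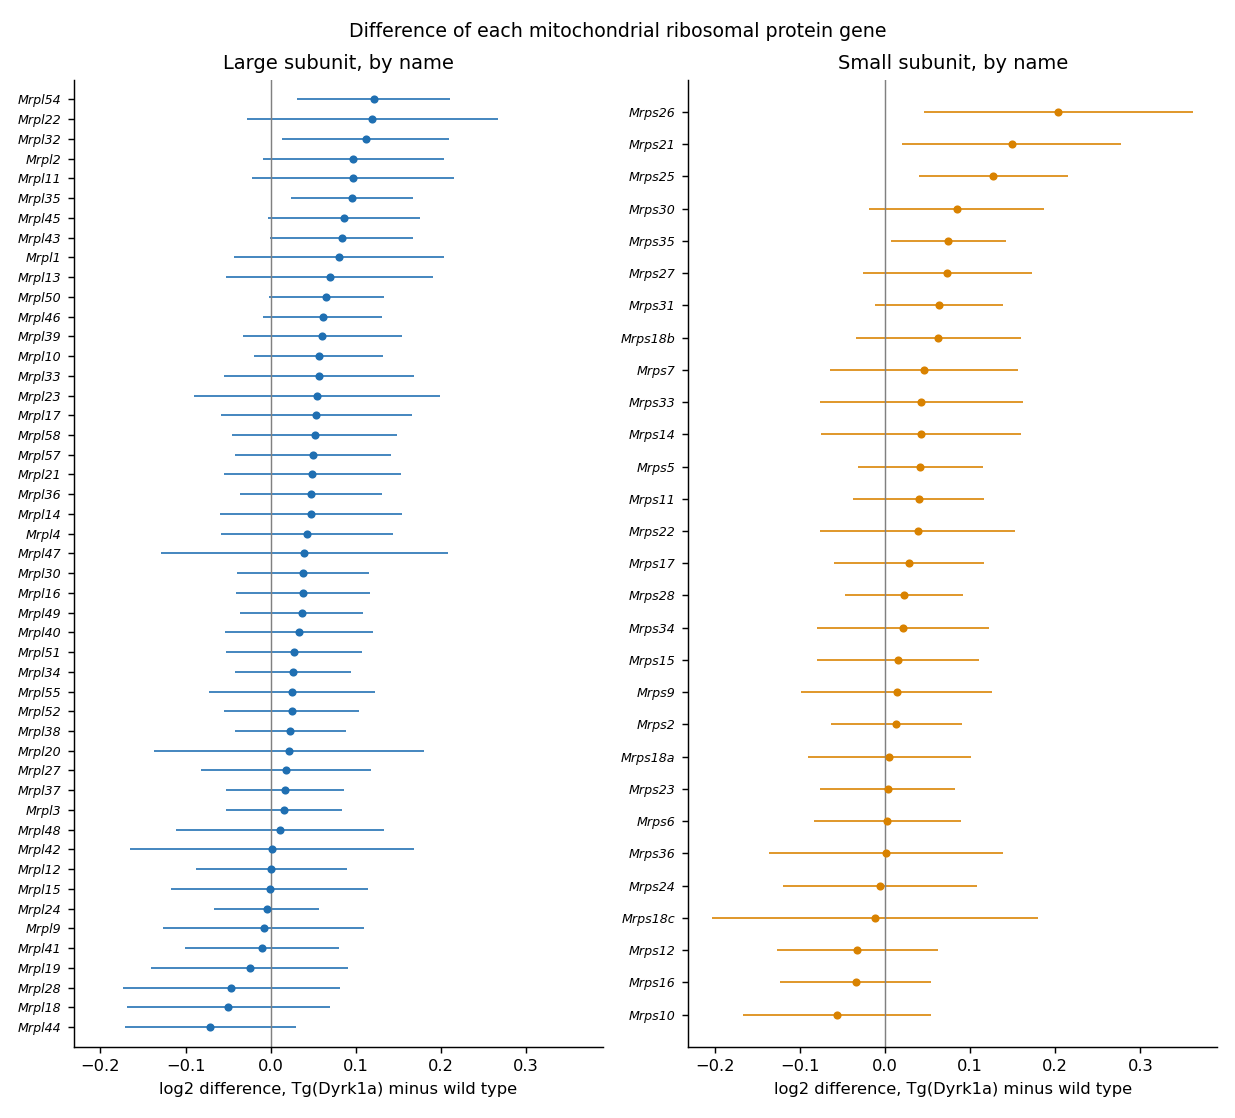
Difference of each of the 77 genes, Tg(Dyrk1a) minus wild type in log2 units, with its 95% limma interval; large subunit names stand on the left and small subunit names on the right, each sorted by difference. Most points lie above 0, from -0.07 for Mrpl44 to 0.20 for Mrps26, and most intervals cross 0.

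Each interval, taken singly and without adjustment, bounds the difference in the array value of 1 transcript cluster. For 74 of the 77 genes the 95% interval lay within 1.2-fold in either direction, and the highest upper limit of any gene was 1.29-fold, for Mrps26. Dyrk1a itself rose 1.38-fold in its brighter transcript cluster and 1.11-fold (interval 1.04 to 1.2) in its dimmer one. An interval of this kind can therefore differ between transcript clusters of the same gene.

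Subunits were set beside each other because their proteins are needed together. Of the large subunit names 40 of 48 (83.3%) had a higher Tg(Dyrk1a) mean, and of the small subunit names 24 of 29 (82.8%). The median difference was 0.0388 for the large and 0.0283 for the small subunit, 0.0105 apart. With 1 mouse left out the large subunit median was 0.0291 to 0.0512, the small subunit median 0.0122 (without Tg(Dyrk1a) replicate 1) to 0.0391, and the gap 0.00259 (without wild-type replicate 2) to 0.0173 (without Tg(Dyrk1a) replicate 5). By structure, 42 of 50 large subunit genes were higher with a median of 0.0388, and 21 of 26 small subunit genes with a median of 0.0333. At an unadjusted p under 0.05 there were 3 large subunit names (6.25%) and 4 small subunit names (13.8%), all higher. Beside them, 2.99% of all transcript clusters and 4.51% of the genes in the same signal range were higher at that p.

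Within each array the subunits moved together. For each array a score was formed by averaging, over the genes of a subunit, the deviation of that array from the gene's mean over the 10 arrays, in log2 units. The large subunit scores of Tg(Dyrk1a) replicates 1 to 5 were 0.058, 0.039, -0.014, -0.033 and 0.046, and those of wild-type replicates 1 to 5 were -0.038, -0.009, -0.049, -0.004 and 0.004. The small subunit scores were 0.07, 0.048, -0.016, -0.038 and 0.028 in Tg(Dyrk1a) and -0.056, 0.011, -0.039, -0.002 and -0.007 in the wild type. Tg(Dyrk1a) replicates 1, 2 and 5 stood above every wild-type array in both scores, whereas Tg(Dyrk1a) replicates 3 and 4 lay among the wild-type arrays, so the groups overlapped. The large minus the small score was 0.001 ± 0.012 (SD, n = 5) in Tg(Dyrk1a) and -0.001 ± 0.016 in the wild type. It ran from -0.012 to 0.017 and from -0.02 to 0.018, so that no shift of one subunit against the other could be seen beyond the spread between mice. For the genes in the same signal range the score ran from 0.001 to 0.011 in Tg(Dyrk1a) and from -0.032 to 0.007 in the wild type.

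**Figure D2:**
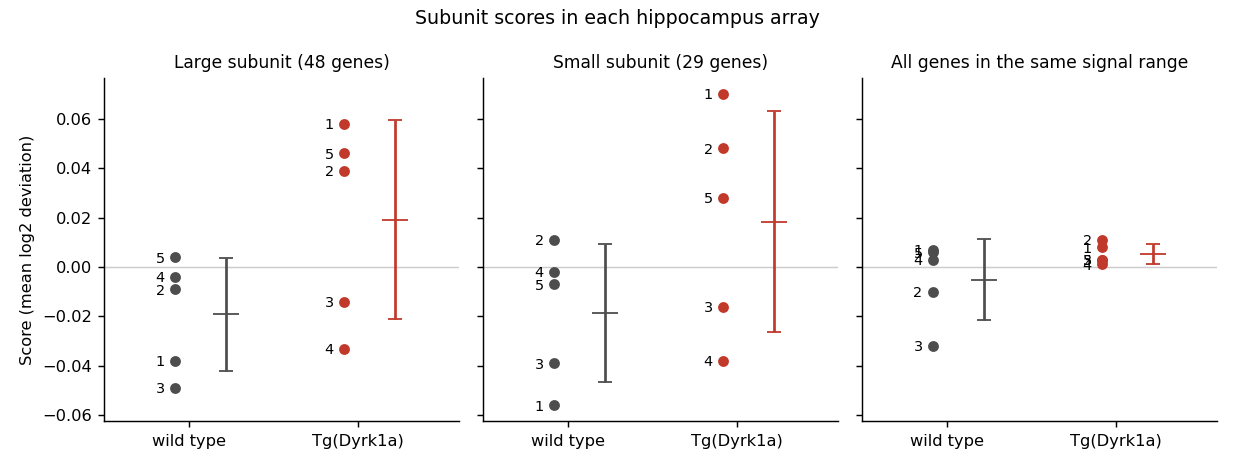
Score of the large subunit (48 genes), of the small subunit (29 genes) and of all genes in the same signal range in each array, as mean log2 deviation from the mean of the 10 arrays; points are mice numbered by replicate, and bars give the mean and SD of 5 mice. Tg(Dyrk1a) replicates 1, 2 and 5 are above all wild-type mice in both subunits, and replicates 3 and 4 are not.

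The same split was seen by counting genes. Of the 77 genes, 61, 57, 27, 26 and 56 were above their own mean over the 10 arrays in Tg(Dyrk1a) replicates 1 to 5, and 20, 36, 15, 36 and 37 in wild-type replicates 1 to 5. Over all genes this share ran from 40.7% in wild-type replicate 3 to 59.0% in wild-type replicate 1. Tg(Dyrk1a) replicate 1 was the highest of the 10 arrays for 29 of the 77 genes, and Tg(Dyrk1a) replicate 4 and wild-type replicate 1 were the lowest for 16 each. Within Tg(Dyrk1a) the higher values thus came from 3 of the 5 mice. In the wild type, replicates 1 and 3 were the lowest. Their scores over all 77 genes were -0.045 each, against -0.003 to 0.0 in the other wild-type mice. Over the genes in the same signal range, wild-type replicate 1 was at 0.007 and wild-type replicate 3 at -0.032, the lowest of the 10 arrays. Without wild-type replicate 1, 57 genes had a higher mean (55.9% of all genes), and without replicate 3, 59 had (48.3% of all genes). Without Tg(Dyrk1a) replicate 1, 54 genes had a higher mean (49.4% of all genes), and without replicate 4, 71 had (52% of all genes).

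**Figure D3:**
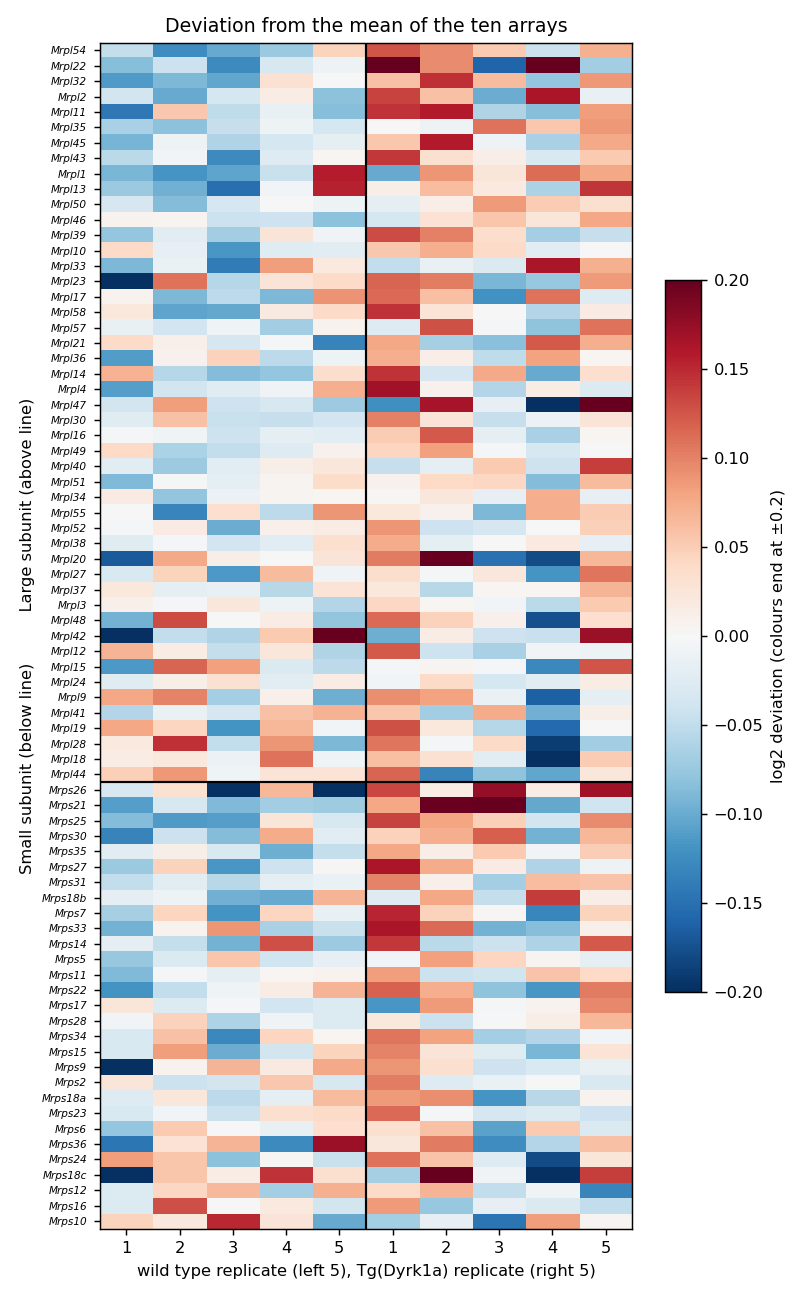
Log2 deviation of each of the 77 genes (rows, large subunit above the line) from its mean over the 10 arrays (columns, wild type left and Tg(Dyrk1a) right); colours end at 0.2 in either direction. The columns of Tg(Dyrk1a) replicates 1, 2 and 5 are mostly red, that of replicate 4 holds many blue cells, and wild-type replicates 1 and 3 are mostly blue.

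When the genes were grouped by ancestry, 37 of 48 genes of bacterial families (77.1%) and 26 of 28 genes found only in mitochondrial ribosomes (92.9%) had a higher Tg(Dyrk1a) mean, with medians of 0.03 and 0.05. The 9 small subunit genes found only in mitochondria were all higher, with a median of 0.06, and the 17 small subunit genes of bacterial families had a median of 0.02, with 12 higher. In the large subunit both classes had a median of 0.04. The scores of the mitochondria-only genes overlapped between the groups, from -0.044 to 0.073 in Tg(Dyrk1a) and from -0.06 to 0.003 in the wild type. The difference between the classes was not tested.

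The 7 genes with an unadjusted limma p under 0.05 are described singly, beginning with the small subunit. Each of them had an adjusted p of 0.947 and none passed.

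Mrps25, a small subunit protein found only in mitochondria (transcript cluster 10546396, chr6:92169512-92184023), measured 8.46, 8.41, 8.38, 8.29 and 8.42 in Tg(Dyrk1a) replicates 1 to 5 and 8.24, 8.22, 8.22, 8.35 and 8.30 in the wild type. Tg(Dyrk1a) replicate 4 was the lowest of its group and lay below 2 wild-type mice, so the groups overlapped. The difference was 0.13 ± 0.04, or 1.09-fold, with an unadjusted p of 0.00765 by limma and 0.0238 by the two-sided exact permutation test.

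Mrps26 (transcript cluster 10476189, chr2:130563757-130565394), also found only in mitochondria, had the largest difference of the 77 genes. It measured 8.41, 8.29, 8.45, 8.29 and 8.44 in Tg(Dyrk1a) and 8.24, 8.30, 7.97, 8.34 and 8.01 in the wild type. Wild-type replicates 3 and 5 were far below the other 8 arrays, and the remaining wild-type mice lay within or just below the range of Tg(Dyrk1a). The difference was 0.20 ± 0.07 (1.15-fold), with a p of 0.0158 by limma and 0.0556 by the exact permutation test. It was 0.152 to 0.246 when any 1 mouse was left out, 0.105 with choroid plexus and meninges marker scores as covariates and 0.0303 with a vessel marker score as covariate.

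Mrps21, of a bacterial family (transcript cluster 10500268, chr3:95862634-95871514), measured 10.15, 10.27, 10.31, 9.97 and 10.03 in Tg(Dyrk1a) and 9.96 to 10.04 in the wild type, with a mean of 9.99. Tg(Dyrk1a) replicates 1, 2 and 3 were above every wild-type mouse and replicates 4 and 5 were not. The SD was 0.15 in Tg(Dyrk1a) and 0.03 in the wild type, and the difference of 0.15 ± 0.06 had a p of 0.0269 by limma and 0.0873 by the exact permutation test. Replicate 3, which was high here, was not high in the subunit score.

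Mrps35 (transcript cluster 10542824, chr6:147042728-147070906), a mitochondria-only protein of the small subunit, measured 7.65, 7.59, 7.63, 7.57 and 7.62 in Tg(Dyrk1a) and 7.55, 7.59, 7.54, 7.48 and 7.53 in the wild type. Only wild-type replicate 2 reached into the Tg(Dyrk1a) range. The difference was small and even, 0.07 ± 0.03, with a p of 0.0336 by limma and 0.0159 by the exact permutation test.

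In the large subunit, Mrpl54 (transcript cluster 10371107, chr10:81264722-81266926), a mitochondria-only protein, measured 8.36, 8.33, 8.29, 8.19 and 8.31 in Tg(Dyrk1a) and 8.19, 8.11, 8.13, 8.16 and 8.28 in the wild type. Tg(Dyrk1a) replicate 4 lay at the level of wild-type replicate 1, and wild-type replicate 5 just below the other Tg(Dyrk1a) mice. The difference was 0.12 ± 0.04, with a p of 0.0122 by limma and 0.0159 by the exact permutation test.

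Mrpl35, a bacterial-family protein with the YY1 letters shown above (transcript cluster 10545339, chr6:71812997-71823784), measured 10.09, 10.08, 10.20, 10.15 and 10.18 in Tg(Dyrk1a) and 10.03, 10.01, 10.05, 10.08 and 10.05 in the wild type. The groups met only at 10.08, in Tg(Dyrk1a) replicate 2 and wild-type replicate 4. The difference was 0.10 ± 0.03, with a p of 0.0128 by limma and 0.0159 by the exact permutation test. Replicates 3 and 4, low in the subunit scores, were not low for this gene.

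Mrpl32, whose protein is matured by the m-AAA protease of the inner membrane before it enters the ribosome (transcript cluster 10407870, chr13:14610301-14613037), measured 7.70, 7.79, 7.70, 7.56 and 7.73 in Tg(Dyrk1a) and 7.53, 7.55, 7.54, 7.67 and 7.64 in the wild type. Tg(Dyrk1a) replicate 4 fell among the wild-type mice and the other 4 lay above all of them. The difference was 0.11 ± 0.05, with a p of 0.0295 by limma and 0.0476 by the exact permutation test. With the choroid plexus and meninges scores as covariates it was 0.0144, and with the vessel score 0.0392.

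**Figure D4:**
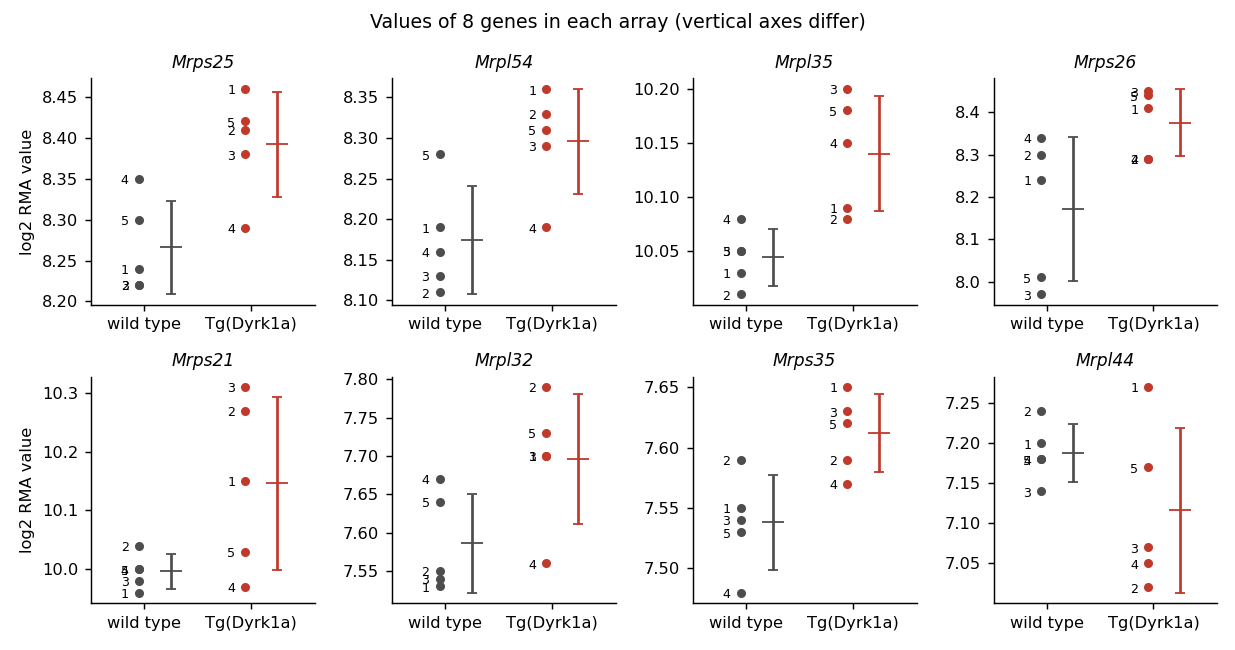
Log2 RMA values of 8 genes in each mouse, with mean and SD of 5 mice beside the points and replicate numbers at the points; vertical axes differ between panels. The first 7 panels are the genes with the smallest p, and the last is Mrpl44, the lowest difference; in no panel are the groups fully apart.

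Across these 7 genes, Tg(Dyrk1a) replicate 4 was the lowest of its group in 6, or level with the lowest, and Mrpl35 was the exception. The marker scores as covariates also lowered Mrps25 to 0.0737 (choroid plexus and meninges) and 0.0599 (vessels), Mrpl54 to 0.0939 and 0.0795, Mrpl35 to 0.0563 and 0.0638, and Mrps21 to 0.0534 and 0.105. Mrps35 was at 0.102 and 0.08. These 7 genes were picked for their small p in the fit without covariates. Among other named genes, the choroid plexus and meninges covariates raised some differences and lowered others. Mrpl22 went from 0.119 to 0.238 and Mrps31 from 0.0636 to 0.108. Mrpl50 went from 0.0652 to 0.0256 and Mrps30 from 0.0842 to -0.0265. FCROS, the rank method with which the study called its genes, counted Mrps25, Mrps26, Mrps21, Mrpl54 and Mrpl32 as higher and none of the 77 as lower, beside 2.72% and 2.11% of all transcript clusters. Without trimming of its ranks it counted 6 of the 77, beside 4.96%.

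The genes next in order by p were also slightly higher. Mrpl43, with its pair of ETS letters, differed by 0.08 ± 0.04 (p = 0.0524 by limma and 0.0397 by the exact permutation test), Mrpl50 by 0.07 ± 0.03 (p = 0.058 and 0.0238, exact permutation) and Mrps31 by 0.06 ± 0.03 (p = 0.0908 and 0.0714, exact permutation). Mrpl22 lines the exit tunnel of the new chain and has both NRF1 and ETS letters. It measured 7.16, 7.05, 6.79, 7.18 and 6.88 in Tg(Dyrk1a) and 6.87, 6.91, 6.83, 6.92 and 6.94 in the wild type. Tg(Dyrk1a) replicates 1, 2 and 4 were above the wild type and replicate 3 was below it, with an SD of 0.17 against 0.05, and the difference was 0.12 ± 0.07.

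Genes with a known place in translation were spread around small differences. Mrpl10 and Mrpl12 form the stalk that recruits translation factors, and they differed by 0.06 ± 0.03 and 0.00 ± 0.04, the latter with a 95% interval of -0.09 to 0.09. Mrpl45 anchors the ribosome at the inner membrane near the exit tunnel, and its difference was 0.09 ± 0.04 (p = 0.0579 by limma and 0.0714 by the exact permutation test). Mrps12 lies at the decoding site and differed by -0.03 ± 0.04. The paralogues Mrps18a, Mrps18b and Mrps18c stem from a single bacterial protein and differed by 0.01 ± 0.04, 0.06 ± 0.04 and -0.01 ± 0.09. Mrps18c varied most, from 8.3 to 8.8 in Tg(Dyrk1a) and from 8.38 to 8.74 in the wild type. Mrps30 of the large subunit differed by 0.08 ± 0.05. Mrps36 differed by 0.00 ± 0.06, with an interval of -0.14 to 0.14.

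The genes with the lowest differences did not pass the test either. Mrpl44, whose protein has a fold like ribonuclease III, measured 7.27, 7.02, 7.07, 7.05 and 7.17 in Tg(Dyrk1a) and 7.20, 7.24, 7.14, 7.18 and 7.18 in the wild type. Tg(Dyrk1a) replicates 2, 3 and 4 were below the wild type and replicate 1 was above it, and the difference was -0.07 ± 0.05 (p = 0.151 by limma and 0.159 by the exact permutation test), or -0.109 without Tg(Dyrk1a) replicate 1. Mrps10, Mrpl18 and Mrps16 differed by -0.06 ± 0.05, -0.05 ± 0.05 and -0.03 ± 0.04. Mrpl33 was the only one of the 77 with a mean below every array median, so its difference of 0.06 ± 0.05 was measured at low signal.

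Mrpl39, Mrpl40 and Mrps6 lie on chromosome 16 with Dyrk1a, and Mrpl39 and Mrps6 are in the part that corresponds to the human chromosome trisomic in Down syndrome. Mrps6 (chr16:92058336-92112227) measured 9.17 ± 0.07 and 9.16 ± 0.05, a difference of 0.00 ± 0.04 with an interval of -0.08 to 0.09. Mrpl39 (chr16:84718281-84735244) measured 9.74, 9.71, 9.64, 9.54 and 9.56 in Tg(Dyrk1a) and 9.53, 9.58, 9.54, 9.63 and 9.60 in the wild type. Its difference of 0.06 ± 0.04 (p = 0.183 by limma and 0.214 by the exact permutation test) lay within the spread, with Tg(Dyrk1a) replicates 4 and 5 among the wild-type mice. Mrpl40 differed by 0.03 ± 0.04. None of the 3 approached the 1.38-fold of the brighter Dyrk1a transcript cluster, and the upper limit of Mrps6 was 1.06-fold.

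For the 8 genes with a second transcript cluster the differences of both are given. Whether each transcript cluster measures the gene or a copy elsewhere was not checked. The second one had the same direction for Mrpl23 (0.07 against 0.05), Mrpl51 (0.07 against 0.03), Mrps33 (0.03 against 0.04) and Mrpl41 (-0.01 for both). It had the opposite sign for Mrpl27 (-0.05 against 0.02), Mrpl47 (-0.06 against 0.04) and Mrps5 (-0.01 against 0.04), and for Mrps36 both were 0 to the second decimal. RefSeq lists pseudogenes of Mrpl23, Mrpl27, Mrpl48 and Mrps36, and signal of a gene and its near-identical copies cannot be told apart on these arrays.

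Other genes of mitochondrial translation were higher by similar amounts, and none of them passed limma. The proteins of the ribosome that carry other names, Dap3, Ptcd3, Chchd1 and Gadd45gip1, had differences of 0.04 ± 0.03, 0.08 ± 0.05, 0.10 ± 0.07 and 0.02 ± 0.05. Of 29 genes for assembly and ribosomal RNA modification 22 were higher, with a median of 0.03, and 1 was under an unadjusted p of 0.05. This was Mtg2, a GTPase of large subunit assembly, with 7.60, 7.59, 7.57, 7.64 and 7.60 in Tg(Dyrk1a) and 7.51, 7.55, 7.53, 7.53 and 7.50 in the wild type. The groups did not overlap, as for 0.807% of all transcript clusters. The difference was 0.08 ± 0.03 with an exact permutation p of 0.00794, the smallest these 10 arrays allow, and an adjusted limma p of 0.947. The next gene of this list was Mterf3, at 0.06 ± 0.03.

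Of 16 translation factors 13 were higher, with a median of 0.04. Mtfmt, which formylates the initiator methionine, differed by 0.09 ± 0.04 and Mrrf, the ribosome recycling factor, by 0.08 ± 0.04. Of 19 genes for charging mitochondrial tRNAs 14 were higher, with a median of 0.03, and the subunits of the glutaminyl-tRNA amidotransferase Qrsl1 and Gatb differed by 0.09 ± 0.04 and 0.11 ± 0.06.

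Of 16 genes for transcription and handling of mitochondrial RNA or for copying of mitochondrial DNA 12 were higher, with a median of 0.05. Ssbp1, which coats single-stranded mitochondrial DNA, measured 7.30, 7.36, 7.31, 7.45 and 7.31 in Tg(Dyrk1a) and 7.19, 7.21, 7.15, 7.19 and 7.20 in the wild type. Its groups did not overlap, as for 0.807% of all transcript clusters, and the difference was 0.16 ± 0.03 with an adjusted p of 0.707 by limma. A second, dimmer transcript cluster of Ssbp1 differed by 0.13. Tefm, the elongation factor of the mitochondrial RNA polymerase, differed by 0.12 ± 0.04 with an unadjusted p of 0.00964 by limma and 0.0159 by the exact permutation test. Of 14 regulators of nuclear genes for mitochondrial proteins 6 were higher (42.9%) and 8 lower, beside 51.7% higher over all genes, with a median of -0.03 and a mean difference of -0.000552. Gabpb1 and Gabpb2, partners of the ETS factor GABPA and the 2 of this list with the smallest p, differed by 0.06 ± 0.04 and 0.07 ± 0.05. The factors named with the promoter letters, Nrf1, Gabpa and Yy1, differed by -0.04 ± 0.05, 0.02 ± 0.05 and 0.05 ± 0.05. The number under an unadjusted p of 0.05 was 2 for the translation factors. It was 2, Ssbp1 and Tefm, for transcription, RNA handling and DNA copying, and 0 for the tRNA, regulator and other-name lists. These and the 1 of 29 in the assembly list (3.45%) stand beside 2.99% of all transcript clusters higher and 1.94% lower at this p.

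**Figure D5:**
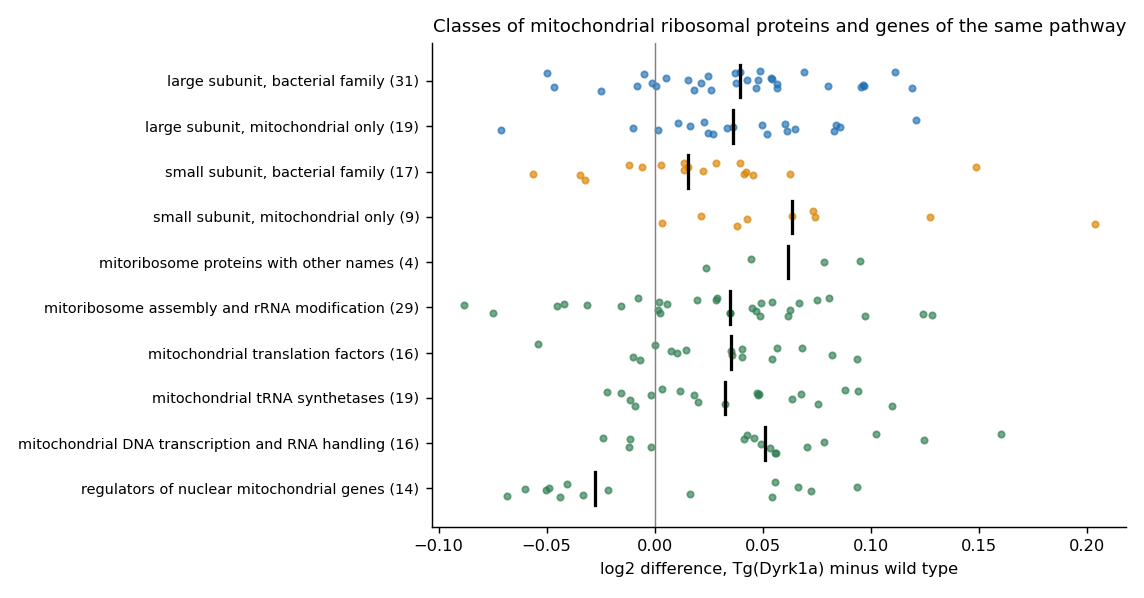
Difference of each gene, Tg(Dyrk1a) minus wild type in log2 units, in 4 classes of mitochondrial ribosomal proteins and 6 lists of the same pathway; points are genes and the bar is the median, with the number of genes in brackets. The median is above 0 in every row except the regulators, at -0.03.

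Marker genes of other cells are given here for comparison, and none of them passed limma. For vessels and mural cells 12 of 14 markers had a higher Tg(Dyrk1a) mean (median 0.09). At an unadjusted p under 0.05, 4 of them (28.6%) were higher, beside 2.99% of all transcript clusters. These included Acta2 at 0.38 ± 0.10 and Vtn at 0.16 ± 0.05, whereas Pecam1 and Flt1 differed by -0.01 ± 0.06 and 0.01 ± 0.03. The vessel score was 0.057, 0.019, 0.093, 0.017 and 0.073 in Tg(Dyrk1a) replicates 1 to 5 and -0.067, -0.034, -0.163, 0.015 and -0.011 in the wild type. These groups did not overlap. Wild-type replicate 3 was the lowest in this score and in the large subunit score, wild-type replicate 1 was the lowest in the small subunit score, and Tg(Dyrk1a) replicate 3 had the highest vessel score and subunit scores of -0.014 and -0.016. With the vessel score as a covariate, which is nearly aligned with genotype here, 47 of the 77 genes had a higher Tg(Dyrk1a) mean, the median was 0.0157 and 0 had an unadjusted p under 0.05. Over all genes 46.3% were higher in that setting, and 2.37% of transcript clusters were higher and 3.08% lower at that p.

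For meninges and fibroblasts 13 of 14 markers were higher with a median of 0.25. At an unadjusted p under 0.05, 5 of them (35.7%) were higher, beside 2.99% of all transcript clusters. For choroid plexus 11 of 13 were higher with a median of 0.09, and for thalamus 0 of 10 with a median of -0.13. The choroid plexus markers had a median standard error of 0.32. Their mean score difference was 0.108 with all arrays and ran from -0.174 to 0.397 with 1 mouse left out. The thalamus values turned on wild-type replicate 5, whose score was 0.576. The mean score difference was -0.157 with all arrays and -0.032 without that mouse. With the choroid plexus and meninges scores as covariates 59 genes were higher with a median of 0.028, beside 51.9% of all genes. There 6 had an unadjusted p under 0.05, all higher, beside 3.5% of all transcript clusters higher and 2.54% lower. With the 3 arrays of high choroid plexus score left out, 68 were higher with a median of 0.0469, beside 52.3% of all genes higher. In that setting 13 had an unadjusted p under 0.05, 12 of them higher and 1, Mrps10, lower, beside 3.24% and 2.19% of all transcript clusters. Markers of hippocampal neurons were higher in 9 of 11 (median 0.05), those of oligodendrocytes in 7 of 9, of microglia in 6 of 9, of astrocytes in 6 of 10 and of neurons in 5 of 10, the last 4 with medians of 0.01 or less. The part of cell composition in the ribosomal protein differences was not tested. The vessel score did not overlap between genotypes, so the fit with that covariate cannot separate the score from genotype.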

How the data were processed

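The deposited table of 10 arrays holds log2 values from RMA (robust multi-array average), which corrects background, equalises arrays and summarises probes. The submitters' processing notes name RMA, limma and mm10. Which arrays were normalized together is not given in the sources used here. RMA compresses fold changes, above all at low signal.

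Genotypes were tested by lmFit and eBayes (limma 3.58.1, R 4.3.3) without covariates over 23410 annotated transcript clusters of 35556 rows, with Benjamini-Hochberg adjustment at 0.05. Single genes also had a two-sided exact permutation test over 252 assignments. FCROS was rewritten from its description (25% trimmed, outer 0.025). The fit was tested on simulated data. Gene positions are those of RefSeq GRCm38.p6, and sequences come from its promoter table.

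Named genes were, for each subunit, the 6 with the smallest p, the 2 highest and 2 lowest differences, the 2 brightest and the dimmest, any with groups apart, and some by role. For each list they were the 2 with the smallest p. The genes with a second transcript cluster, Mrpl48 with its pseudogene, Chchd1, Gadd45gip1, Nrf1, Gabpa, Yy1, Pecam1 and Flt1 fall outside this rule. The genes and lists were chosen with earlier results of these data known. Alternatives were quantile normalization, median centring, a dim filter (lowest 30%), all rows, array weights, a variance trend with robust estimation, a replicate block, marker scores as covariates, the mean of transcript clusters, and arrays left out.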

Additional observations from a re-analysis of the deposited data

Results flagged for a closer look

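Mrpl18 held a single distant mouse in each group. In Tg(Dyrk1a), replicate 4 measured 8.09 and the other 4 mice lay between 8.31 and 8.39, so that the gap to the nearest mouse was 0.733 of the range of the group. In the wild type, replicate 4 measured 8.44 and the other 4 lay between 8.32 and 8.36, a gap of 0.719 of the range. Both exceed Dixon's critical value of 0.71 for 5 mice. The distant mice lie in opposite directions. Over 68 groups of 5 values examined, these were the 2 that exceeded it, where chance gives about 1 in 20.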

How the results depend on the processing

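No setting made any of the 77 genes pass limma. FCROS counted 5 and, without trimming, 6. Genes with a higher Tg(Dyrk1a) mean numbered 58 after quantile normalization, 56 with array weights, 70 after median centring (where 64% of all genes were higher), 59 with choroid plexus and meninges covariates and 47 with the vessel covariate, a setting added after seeing the data. With 1 array left out they numbered 54 to 71, and the median difference was 0.0227 to 0.0488. The count at an unadjusted p under 0.05 was 13 (1 of them lower) without the 3 arrays highest in choroid plexus markers. It was 6 with choroid plexus and meninges covariates and 0 with the vessel covariate. With 1 array left out it was 5 to 11, 11 without Tg(Dyrk1a) replicate 4. The large minus the small median was -0.00125 with choroid plexus and meninges covariates, -0.0059 with the vessel covariate and 0.0134 after quantile normalization. Of the 29 named genes, 17 kept their sign in every setting.

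The following genes changed sign. With array weights Mrpl12, Mrps6, Mrps18a and Mrps36 were at -0.0161, -0.0294, -0.0182 and -0.00112, and after quantile normalization at -0.0107, -0.00584, -0.00612 and -0.00109. After median centring Mrps18c was at 0.00341. With choroid plexus and meninges covariates Mrpl40, Mrps30, Mrps10, Mrps16 and Mrps12 were at -0.031, -0.0265, 0.0175, 0.0118 and 0.028. With the vessel covariate Mrpl40, Mrpl33, Mrps30, Mrps10, Mrps12, Mrpl12 and Mrps18a were at -0.0114, -0.0226, -0.0146, 0.0683, 0.0306, -0.0119 and -0.00624. Without the 3 arrays Mrps6 and Mrps18c were at -0.0242 and 0.0226. With 1 array left out Mrpl18 ranged from -0.071 to 0.00543, Mrpl12 from -0.0298 to 0.0179, Mrps6 from -0.0162 to 0.0301, Mrps18a from -0.0175 to 0.0352, Mrps18c from -0.0674 to 0.0607 and Mrps36 from -0.0346 to 0.0442. The cause was not tested.

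Arrays of equal replicate number did not deviate together as a rule, and the correlation of their deviations ran from -0.285 to 0.276. It was highest for number 1, whose arrays were each other's best partner. For numbers 2 to 5 the best partner had another number. With a replicate block 0 of the 77 genes passed and 5 had an unadjusted p under 0.05, all higher. In that setting 2.87% of all transcript clusters were higher and 2.23% lower at that p. Dyrk1a passed in every setting run. The standard error of about 0.04 limits what 5 arrays per group can resolve among differences of this size.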
